A study of Mus musculus with 15 samples.

Results

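Gene expression of prostaglandin synthesis and prostaglandin receptors was examined in mouse fibroblasts of 5 sources, each measured on 3 2-colour Agilent arrays, 15 arrays in all. Members were the 10 genes Ptgs1, Ptgs2, Ptges, Ptgis, Ptgds, Ptger1, Ptger2, Ptger3, Ptger4 and Ptgfr, found by the symbol in the probe descriptions of the array. They are 10 of the 16449 gene symbols on the array and were carried by 12 of its 41174 probes, 2 each for Ptgs2 and Ptger3 and 1 for each of the other 8 genes. Probes were taken by name and not by their values, but the members were chosen with earlier results of these data known. Of the 12 probes, 11 were among the 38522 probes tested, since the second Ptger3 probe was too dim to enter the test.

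The title of the series speaks of tumours that escape blockade of VEGF, the main growth factor for vessels. The labels mark 3 sources as resistant (TAF-el4, TAF-tib42, TAF-tib48; 9 arrays) and 2 as sensitive (NSF, TAF-tib6; 6 arrays). TAF is taken to mean tumour-associated fibroblasts. EL4 names a T-cell lymphoma line from the mouse; the sources used here do not spell out NSF or the tib codes. No strain, age, sex, treatment, passage or genotype is given for any source, so each of them is described by its name alone. Fibroblast RNA carried the Cy5 dye throughout, and a purchased mouse reference RNA carried Cy3. Values are log2 ratios of source to reference, and a difference between sources is a log2 fold change. Whether the 3 arrays of a source come from separate cultures is not given, so a p-value here measures array-to-array spread, possibly technical.

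Prostaglandins are short-lived lipid signals made from arachidonic acid that phospholipases free from the membrane. The cyclooxygenases Ptgs1 (COX-1, mostly constitutive) and Ptgs2 (COX-2, mostly induced by cytokines and growth factors) turn it into prostaglandin H2. Terminal synthases then make the single products: Ptges prostaglandin E2, Ptgis prostacyclin and Ptgds prostaglandin D2. Prostaglandin E2 acts through the G-protein-coupled receptors EP1 to EP4, encoded by Ptger1 to Ptger4, and prostaglandin F2alpha through FP, encoded by Ptgfr. Fibroblasts are a known source of prostaglandin E2 in wounds and tumours, where it acts on vessels, immune cells and the fibroblasts themselves.

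Promoter sequences are shown for the cyclooxygenases and for Ptges. The 5 source means ran in different orders for Ptgs1 and Ptgs2 and in the same order for Ptgs2 and Ptges, though not every step was called. Each holds 250 bases before and 50 after the annotated start in RefSeq (GRCm38.p6), 5′ to 3′ on the strand of the gene, with motif matches in capitals. The windows are chr2:36230176-36230475 (plus strand) for Ptgs1, chr1:150099781-150100080 (plus strand) for Ptgs2 and chr2:30903248-30903547 (minus strand) for Ptges.
Ptgs1: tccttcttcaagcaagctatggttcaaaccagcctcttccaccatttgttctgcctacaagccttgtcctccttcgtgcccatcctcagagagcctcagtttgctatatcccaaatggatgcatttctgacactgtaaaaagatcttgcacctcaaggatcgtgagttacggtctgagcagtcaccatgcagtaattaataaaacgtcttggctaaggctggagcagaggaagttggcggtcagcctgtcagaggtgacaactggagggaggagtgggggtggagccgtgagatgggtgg
Ptgs2: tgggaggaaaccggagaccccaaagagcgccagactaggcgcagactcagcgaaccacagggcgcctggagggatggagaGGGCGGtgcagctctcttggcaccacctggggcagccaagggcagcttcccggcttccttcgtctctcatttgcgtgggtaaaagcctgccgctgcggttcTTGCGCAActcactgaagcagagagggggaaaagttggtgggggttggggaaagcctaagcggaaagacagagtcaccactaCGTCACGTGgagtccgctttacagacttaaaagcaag
Ptges: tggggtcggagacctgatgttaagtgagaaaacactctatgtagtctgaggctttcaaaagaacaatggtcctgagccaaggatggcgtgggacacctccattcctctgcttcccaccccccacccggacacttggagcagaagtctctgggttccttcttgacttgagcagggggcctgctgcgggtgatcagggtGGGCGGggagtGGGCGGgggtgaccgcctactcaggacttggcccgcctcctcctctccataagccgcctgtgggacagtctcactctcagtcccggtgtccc

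Motifs were searched on both strands as TATAAA (core promoter box), CGTCA (a CRE core), TGANTCA (AP-1), CACGTG (E-box), CCAAT (bound by NF-Y), GGGCGG (GC box) and TTGCGCAA (C/EBP). The Ptgs2 window held 4 of them: GGGCGG at position -170 from the start, TTGCGCAA at -69, CGTCA at 14 and CACGTG at 17. The last 2 overlap and appear as 1 run of capitals. Over 32851 promoter windows of the same length, GGGCGG stood in 35.7%, CGTCA in 20.8%, CACGTG in 7.15% and TTGCGCAA in 0.183%. The Ptges window held GGGCGG at -53 and -42 and no other motif of the set. None of the 7 motifs was found in the Ptgs1 window. TATAAA (13.6% of all windows), TGANTCA (7.81%) and CCAAT (37.4%) matched none of the 3 windows shown. The windows held 6 CG pairs for Ptgs1, 16 for Ptgs2 and 10 for Ptges, against a median of 7. These are matches of letters and were not tested as binding sites.

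Arrays differed in brightness, with 29 to 95 saturated probes on each. Median Cy5 intensity lay between 173.4 and 283.1 over a local background of 52 to 56, and log2 ratios correlated over probes at 0.96 to 0.99 between arrays of 1 source and at 0.84 to 0.95 between sources. Slide numbers fell into 3 consecutive runs that partly follow the sources. The first run held all NSF arrays and 2 of TAF-el4. The second held the other TAF-el4 array, all TAF-tib42 arrays and 1 of TAF-tib48, and the third held 2 TAF-tib48 arrays and all TAF-tib6 arrays. Where a fit with the run as a block ended a call on a synthase or receptor, this is given beside it.

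Markers of fibroblasts were measured in every source. All 12 fibroblast genes were above the 99th percentile of negative control spots on every array, and their summed Cy5 signal above background lay between 1430 and 2080 times the median Cy5 signal of all probes on the array. Col1a1, Col1a2 and Vim were saturated on all 15 arrays, so the sum is bounded by the scanner's ceiling and says little about differences between sources. Of the 12 genes 10 were called in at least 1 pair, as were 54.7% of all probes. The proteoglycan Dcn had the widest range, at -0.01 in NSF, -1.31 in TAF-tib6 and -3.03 to -2.76 in the resistant sources, and the receptor Pdgfra fell by 1.42 from NSF to TAF-tib48. The leukocyte antigen Ptprc lay at -4.68 to -4.26 in all sources. The 10 macrophage markers summed, in the same unit, to 17.1 to 21.7 over all arrays. In TAF-tib42, 6 of the 10 rose and 1 fell against TAF-tib6, and 5 rose and 2 fell against NSF. Of all probes, 24.8% and 24.2% were called in these comparisons. Tyrobp rose by 0.73 and Ptprc by 0.42 from NSF to TAF-tib42, while Lyz2 went from -2.51 to -2.83 and Aif1 from -0.27 to -0.56. The Ptprc probe was dim, at a mean Cy5 signal of 98.3. Endothelial markers summed to 8.3 to 10.2 in TAF-tib48 and to 3.6 to 4.58 elsewhere. Emcn was at 2.04 in TAF-tib48 and 0.05 to 0.26 in the others. Cdh5 (0.74), Erg (0.65) and Tek (0.57) also had their highest means in TAF-tib48, while Pecam1 lay at -0.18 to -0.03 in every source. Of the 8 endothelial markers, 4 rose and 0 fell in TAF-tib48 against NSF, and likewise against TAF-tib6. Of all probes, 26.5% and 24.8% were called in these 2 comparisons. Adipocyte markers summed to 66.3 to 76.8 in TAF-tib6 and 10.6 to 28.2 elsewhere. Lpl was at 3.50 in TAF-tib6, whereas Fabp4 was at 2.80 there and 2.86 in TAF-el4, and Adipoq, Plin1, Cidec and Retn lay between -0.03 and 0.17 in every source. Against NSF, 2 of the 6 rose in TAF-tib6, where 11% of all probes were called. The muscle markers summed to 155 to 165 in TAF-el4 and 57.2 to 104 elsewhere. The brightest, Cnn1 and Acta1, had their highest means in TAF-el4 (4.55 and 3.16), whereas Myh11 was at 1.04 there and 1.19 in NSF. Of the 7 muscle markers, 3 rose and 0 fell in TAF-el4 against NSF, where 17.4% of all probes were called. All 8 endothelial, 6 adipocyte and 7 muscle markers were above the same percentile in every source, as were the 10 macrophage, 8 lymphoid and 7 epithelial markers. Passing that percentile thus does not tell cell types apart. Of the 8 lymphoid markers, 4 rose and 0 fell in TAF-tib48 against NSF, and 0 rose and 0 fell in TAF-el4 against NSF. The part of any of these markers in the results below was not tested.

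Ptgs1, which encodes COX-1, was higher in every resistant source than in either sensitive source. The 3 TAF-tib6 arrays gave log2 ratios of -2.04, -2.14 and -2.17, and the NSF arrays gave -1.26, -1.21 and -1.21. The TAF-el4 arrays gave -0.75, -0.78 and -0.61, TAF-tib42 -0.45, -0.33 and -0.48, and TAF-tib48 -0.23, -0.25 and -0.30. No 2 sources overlapped, and the order ran from TAF-tib6 at the bottom through NSF, TAF-el4 and TAF-tib42 to TAF-tib48 at the top. Ptgs1 was called higher in all 6 comparisons of a resistant with a sensitive source, by limma at an adjusted p under 0.05, as were 1.15% of all probes tested. These 6 comparisons share arrays.

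**Figure D1:**
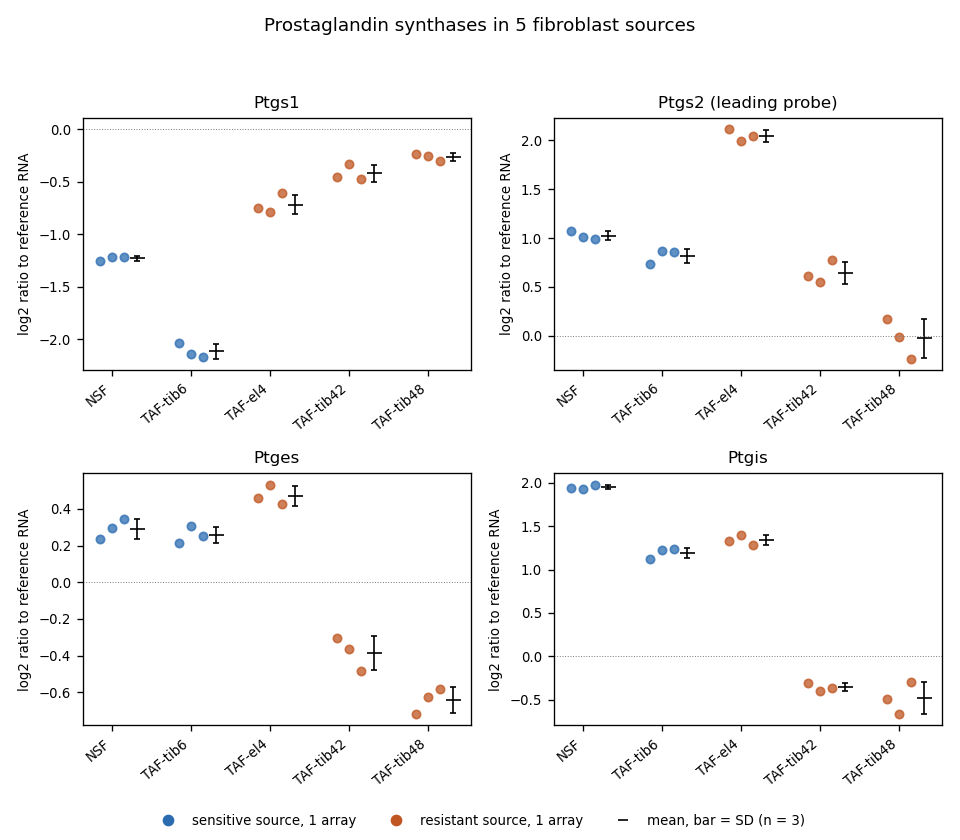
Log2 ratio to the reference RNA (vertical axes, each with its own range) of 4 prostaglandin synthases in the 5 fibroblast sources; points are arrays and the black mark is the mean with its SD (n = 3 arrays). Ptgs1 is lowest in the sensitive sources, whereas Ptgs2 and Ptges are highest in TAF-el4 and lowest in TAF-tib48, and Ptgis is highest in NSF and lowest in TAF-tib42 and TAF-tib48.

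The weakest of the 6 Ptgs1 differences was that of TAF-el4 over NSF, at 0.51 (SE 0.0527, adjusted p = 9.26e-07), a 1.43-fold difference. Against NSF, TAF-tib42 was higher by 0.81 and TAF-tib48 by 0.96. Against TAF-tib6 the differences were 1.70 for TAF-tib42 and 1.85 for TAF-tib48, the latter 3.61-fold (adjusted p = 1.99e-14). The sensitive sources differed from each other as well: Ptgs1 fell by 0.89 from NSF to TAF-tib6 (SE 0.0527, adjusted p = 1.13e-09). Among resistant sources TAF-tib42 lay above TAF-el4 by 0.30 (adjusted p = 3.11e-04), and this call was lost with the slide run as a block (0.19, adjusted p = 0.0794). TAF-tib48 lay 0.16 above TAF-tib42 without a call (95% interval 0.05 to 0.27, adjusted p = 0.0543). Within a slide run, TAF-el4 exceeded NSF by 0.46 in the first (adjusted p = 9.54e-05) and TAF-tib48 exceeded TAF-tib6 by 1.84 in the third (adjusted p = 1.91e-07).

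Ptgs2, which encodes COX-2, did not follow the labels, since the resistant sources held both its highest and its lowest values. Its brighter probe, which leads here, read 2.11, 1.99 and 2.04 in TAF-el4 and 0.17, -0.02 and -0.23 in TAF-tib48. Between them lay NSF (1.08, 1.01 and 0.99), TAF-tib6 (0.74, 0.86 and 0.86) and TAF-tib42 (0.61, 0.56 and 0.77). Every TAF-el4 array was above, and every TAF-tib48 array below, all arrays of the other sources. TAF-tib42 and TAF-tib6 overlapped.

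TAF-el4 exceeded NSF by 1.02 in Ptgs2 (SE 0.0775, adjusted p = 2.04e-08), or 2.03-fold, and TAF-tib6 by 1.23 (adjusted p = 1.93e-09). TAF-tib48 fell by 1.05 against NSF (adjusted p = 5.89e-09) and by 0.85 against TAF-tib6 (adjusted p = 1.5e-07). From TAF-tib48 to TAF-el4 the difference was 2.07 (SE 0.0775, adjusted p = 9.66e-13), or 4.20-fold. NSF exceeded TAF-tib6 by 0.21 (95% interval 0.04 to 0.37, adjusted p = 0.103) and TAF-tib6 exceeded TAF-tib42 by 0.17 (95% interval 0.01 to 0.34, adjusted p = 0.115), neither called. TAF-tib42 fell by 0.38 against NSF (adjusted p = 0.00125), a call that was lost with the slide run as a block (-0.37, adjusted p = 0.0705) and with scaled log ratios (-0.31, adjusted p = 0.336).

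The second Ptgs2 probe lies 328 bases from the first, both with 60 positions on chromosome 1 in the array's coordinates, whose build the files do not name. It gave the same order of sources. It read 2.31, 2.28 and 2.16 in TAF-el4, 0.42, 0.31 and 0.05 in TAF-tib48, and between 0.82 and 1.29 on the other 9 arrays. TAF-el4 exceeded TAF-tib48 by 1.99 with it. The second probe placed TAF-tib42 below NSF by 0.34 (adjusted p = 0.00444), and by 0.20 with the slide run as a block (adjusted p = 0.442).

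Ptges, the microsomal prostaglandin E synthase that works with COX-2, ordered the 5 source means as Ptgs2 did, over a narrower range. The place of NSF above TAF-tib6 was called for neither gene. With the slide run as a block, TAF-tib6 minus NSF was 0.10 for the leading Ptgs2 probe (adjusted p = 0.876) and -0.08 for Ptges (adjusted p = 0.877). The Ptges arrays read 0.46, 0.53 and 0.42 in TAF-el4, 0.23, 0.30 and 0.34 in NSF and 0.22, 0.30 and 0.25 in TAF-tib6. In TAF-tib42 they read -0.30, -0.36 and -0.49, and in TAF-tib48 -0.72, -0.63 and -0.58. TAF-el4 was above and TAF-tib42 and TAF-tib48 were below all sensitive arrays, while NSF and TAF-tib6 overlapped. TAF-tib48 fell by 0.93 against NSF (SE 0.0527, adjusted p = 1.35e-10) and by 0.90 against TAF-tib6. TAF-tib42 fell by 0.68 and 0.64 against the same sources (adjusted p = 1.51e-08 and 2.93e-08), and TAF-tib48 lay below TAF-tib42 by a difference of 0.26 (adjusted p = 0.00187). NSF and TAF-tib6 differed by 0.03 (95% interval for TAF-tib6 minus NSF -0.14 to 0.08, adjusted p = 0.75).

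The rise of Ptges in TAF-el4 was small and did not hold throughout. TAF-el4 exceeded TAF-tib6 by 0.21 (SE 0.0527, adjusted p = 0.00626), and by 0.28 without a call with the slide run as a block (adjusted p = 0.156). It exceeded NSF by 0.18 (adjusted p = 0.0213). That call was lost without NSF replicate 1 (0.15, adjusted p = 0.108), NSF replicate 2 (0.18, adjusted p = 0.0517) or TAF-el4 replicate 2 (0.15, adjusted p = 0.116), with median centring (0.13, adjusted p = 0.219) and with the Cy5 channel alone (0.19, adjusted p = 0.151). The scanner's own ratio gave 0.20 (adjusted p = 0.052).

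Ptgis, the prostacyclin synthase, spanned the widest range of the members and was lowest in TAF-tib42 and TAF-tib48. The arrays read 1.95, 1.93 and 1.98 in NSF, 1.33, 1.40 and 1.28 in TAF-el4 and 1.12, 1.22 and 1.23 in TAF-tib6. In TAF-tib42 they read -0.30, -0.40 and -0.37, and in TAF-tib48 -0.49, -0.66 and -0.30. The 6 arrays of these last sources lay below all 9 others and overlapped with each other. Against NSF, Ptgis fell by 2.43 in TAF-tib48 (SE 0.0665, adjusted p = 1.1e-14), which is 5.39-fold, and by 2.31 in TAF-tib42, or 4.95-fold. Against TAF-tib6 it fell by 1.67 and 1.55.

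TAF-el4, also resistant, stayed near the sensitive sources in Ptgis. It fell by 0.61 against NSF (adjusted p = 1.74e-06) and lay 0.15 above TAF-tib6 without a call (95% interval 0.01 to 0.29, adjusted p = 0.141). It exceeded TAF-tib42 by 1.70 and TAF-tib48 by 1.82. TAF-tib6 fell by 0.76 against NSF (adjusted p = 2.24e-07), a call lost with the slide run as a block (-0.68, adjusted p = 0.0512). TAF-tib42 and TAF-tib48 differed by 0.12 (95% interval -0.02 to 0.26, adjusted p = 0.265). Within the third slide run TAF-tib48 lay at -1.67 against TAF-tib6 (adjusted p = 5.54e-06), and within the second TAF-el4 exceeded TAF-tib42 by 1.64, with 1 TAF-el4 array there.

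**Figure D2:**
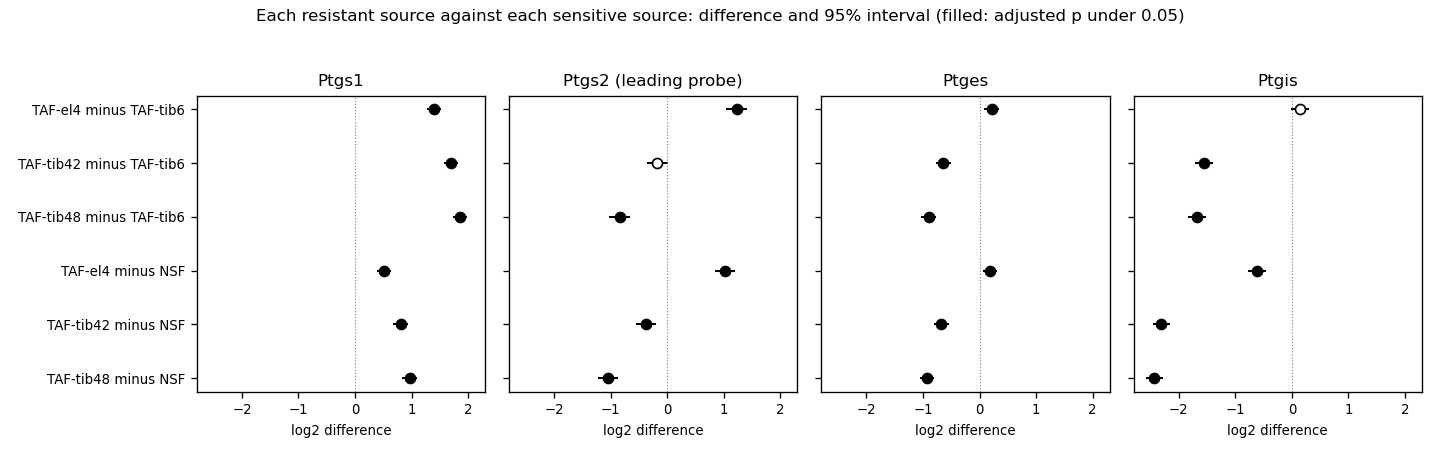
Log2 difference (horizontal axis, with its 95% interval) of each resistant source from each sensitive source for 4 synthases; filled points are called by limma at an adjusted p under 0.05. Ptgs1 lies above 0 in all 6 comparisons, whereas Ptgs2 and Ptges lie above 0 for TAF-el4 and below 0 for TAF-tib48.

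Source means spanned at least 1 on the log2 scale for 5 of the 11 member probes tested, those of Ptgis, Ptgs2 (both), Ptgs1 and Ptges, and for 2.14% of all probes. The limma F test over the 5 sources called 8 of the 11, against 43.4% of all probes. Its value was 533.2 for Ptgis, which ranked 31 among all probes tested, and 403.8 for Ptgs1, which ranked 62. Ptgs2 had 187.9 with the leading and 157.7 with the second probe, and Ptges had 168.4. Ptger2, Ptger4 and Ptgfr were called at 22.25, 14.36 and 7.87. Ptgds (adjusted p = 0.104), Ptger1 (adjusted p = 0.056) and Ptger3 (adjusted p = 0.0836) were not called.

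Ptgds, the lipocalin-type prostaglandin D synthase, was nearly level. Its source means lay between 0.03 ± 0.04 in TAF-tib48 and 0.18 ± 0.08 in TAF-tib6 (SD, n = 3), a span of 0.15. Of its 10 comparisons 1 was called, TAF-tib48 below TAF-tib6 by a difference of 0.15 (adjusted p = 0.0312). That call was lost with the slide run as a block (-0.13, adjusted p = 0.112), with the scanner's ratio (-0.19, adjusted p = 0.0574) and without replicate 1 or 3 of TAF-tib6 (adjusted p = 0.118 and 0.119) or replicate 1 or 2 of TAF-tib48 (adjusted p = 0.1 and 0.0734).

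The receptors gave dim signals, and in the log ratios used here their differences were small beside those of the 4 wide-ranging synthases. Their Cy5 signal lay between 1.17 and 1.99 times the negative control median for Ptger2, 1.25 and 1.70 for the leading Ptger3 probe, 1.55 and 3.16 for Ptger1, 2.37 and 3.94 for Ptger4 and 2.44 and 4.31 for Ptgfr. For Ptgs1 the same range was 5.11 to 31.4. Source means of the receptors spanned 0.16 to 0.42. With an offset of 50 added to each channel, log ratios of signals this low are drawn towards 0. Without an offset, the scanner's own ratio put Ptger2 in TAF-tib48 at -1.22 against NSF, beside -1.11 for Ptges. The smaller range of the receptors is thus in part set by the processing.

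**Figure D3:**
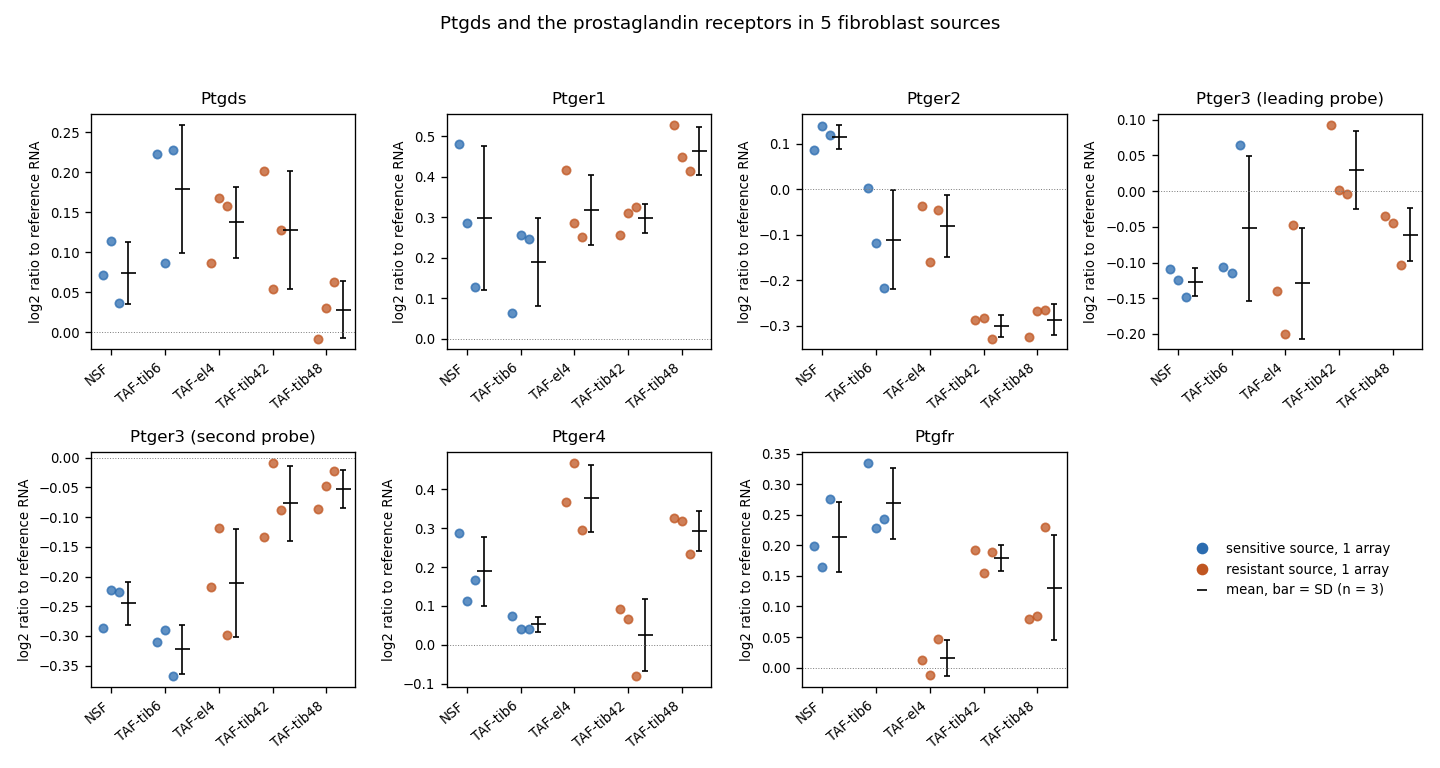
Log2 ratio to the reference RNA (vertical axes, each with its own and narrow range) of Ptgds and of the receptor probes in the 5 sources; points are arrays and the black mark is the mean with its SD (n = 3 arrays). Ptger2 is highest in NSF and lowest in TAF-tib42 and TAF-tib48, while arrays of most other sources overlap in the remaining panels.

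Ptger2, the receptor EP2 that raises cAMP, differed most among the receptors. NSF gave 0.09, 0.14 and 0.12, TAF-el4 -0.04, -0.16 and -0.04, and TAF-tib6 0.00, -0.12 and -0.22. TAF-tib42 gave -0.29, -0.28 and -0.33 and TAF-tib48 -0.33, -0.27 and -0.27. NSF was above all other arrays, and the TAF-tib42 and TAF-tib48 arrays were below all others and overlapped. On no TAF-tib42 array was the probe well above background, so the size of its differences from TAF-tib42 was not measured. In the fit, the calls against TAF-tib42 put Ptger2 higher in NSF (adjusted p = 5.87e-06), TAF-el4 (adjusted p = 0.00349) and TAF-tib6 (adjusted p = 0.0102). On the scale of normalised Cy5 signal, which also holds the offset, Ptger2 read 1.48-fold higher in NSF, 1.34-fold in TAF-el4 and 1.22-fold in TAF-tib6. The bound set for a dim probe was here the TAF-tib42 signal itself, so these folds are not lower limits. The log ratios, with the offset in both channels, gave smaller folds of 1.33, 1.16 and 1.14.

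Among the other sources, Ptger2 fell by 0.40 from NSF to TAF-tib48 (adjusted p = 8.35e-06), by 0.23 to TAF-tib6 (adjusted p = 0.00656) and by 0.20 to TAF-el4 (adjusted p = 0.0101). The scanner's own ratio, which adds no offset, put TAF-tib48 at -1.22 against NSF (adjusted p = 5.23e-05). With that ratio Ptger2 was also called lower in TAF-tib42 than in TAF-tib48 (adjusted p = 0.00952), a pair not called in the main fit (adjusted p = 0.911). The calls of Ptger2 between TAF-tib6 and NSF (adjusted p = 0.269), TAF-tib42 and TAF-tib6 (adjusted p = 0.46), TAF-tib48 and TAF-tib6 (adjusted p = 0.0682) and TAF-el4 and TAF-tib48 (adjusted p = 0.0682) were lost with the slide run as a block. Without TAF-tib6 replicate 1, the call of TAF-tib42 against TAF-tib6 in Ptger2 was lost (adjusted p = 0.0718), and TAF-tib48 lay at -0.12 against TAF-tib6 (adjusted p = 0.109). Without TAF-tib48 replicate 1 the latter was -0.16 (adjusted p = 0.0615), and without TAF-el4 replicate 2 TAF-el4 lay at -0.16 against NSF (adjusted p = 0.0744).

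Ptger4, the receptor EP4 that also raises cAMP, was highest in TAF-el4 (0.37, 0.47 and 0.30) and TAF-tib48 (0.33, 0.32 and 0.23). It was lowest in TAF-tib6 (0.07, 0.04 and 0.04) and TAF-tib42 (0.09, 0.07 and -0.08), with NSF between them at 0.29, 0.11 and 0.17. TAF-el4 and TAF-tib48 overlapped each other and stood clear of TAF-tib6 and TAF-tib42. TAF-el4 exceeded TAF-tib42 by 0.35 (SE 0.0566, adjusted p = 1.07e-04) and TAF-tib6 by 0.33 (adjusted p = 2.98e-04), and TAF-tib48 exceeded TAF-tib6 by 0.24 (adjusted p = 0.00381). Within the third slide run the last difference was 0.23 (adjusted p = 0.0176), but it was 0.10 with Cy5 alone (adjusted p = 0.32). With the run as a block TAF-el4 over TAF-tib6 was 0.20 (adjusted p = 0.419). The calls against NSF (0.19 for TAF-el4 and -0.16 for TAF-tib42, adjusted p = 0.0255 and 0.0419) were lost with the scanner's ratio (adjusted p = 0.0691 and 0.0852), and the TAF-tib42 difference was -0.04 with the slide run as a block (adjusted p = 0.868). Ptger4 in TAF-el4 against NSF was also not called without NSF replicate 2 or 3 (0.15 and 0.18) or TAF-el4 replicate 1 or 2 (0.19 and 0.14). For TAF-tib42 against NSF the same held without NSF replicate 1 or 3 (-0.12 and -0.17) or TAF-tib42 replicate 2 or 3 (-0.18 and -0.11).

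Ptgfr, the receptor for prostaglandin F2alpha, was lowest in TAF-el4, at 0.01, -0.01 and 0.05. It read 0.33, 0.23 and 0.24 in TAF-tib6, 0.20, 0.16 and 0.28 in NSF, 0.19, 0.15 and 0.19 in TAF-tib42 and 0.08, 0.08 and 0.23 in TAF-tib48. Every TAF-el4 array was below all others. TAF-el4 fell by 0.25 against TAF-tib6 (SE 0.0482, adjusted p = 7.09e-04) and by 0.20 against NSF (adjusted p = 0.00612). With the slide run as a block the first was -0.14 (adjusted p = 0.524), and within the first run the second was -0.21 (adjusted p = 0.0138). With Cy5 alone the second was -0.22 without a call (adjusted p = 0.15). The other Ptgfr calls, TAF-el4 against TAF-tib42 (-0.16, adjusted p = 0.019) and TAF-tib48 against TAF-tib6 (-0.14, adjusted p = 0.0442), were lost with the slide run as a block (-0.13 and -0.11, adjusted p = 0.253 and 0.162). They were each also lost without any of 4 single arrays: replicates 1 and 2 of TAF-el4 and 1 and 3 of TAF-tib42 for the former, and replicates 1 and 2 of TAF-tib48 and 1 and 3 of TAF-tib6 for the latter (adjusted p = 0.0543 to 0.185).

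Ptger1, the receptor EP1 that signals through calcium, had 1 call in 10 comparisons. Its means were 0.46 ± 0.06 in TAF-tib48, 0.32 ± 0.09 in TAF-el4, 0.30 ± 0.18 in NSF, 0.30 ± 0.04 in TAF-tib42 and 0.19 ± 0.11 in TAF-tib6 (SD, n = 3). TAF-tib48 exceeded TAF-tib6 by 0.27 (adjusted p = 0.0093), and no array of the 2 sources overlapped. The call was lost with the scanner's ratio (0.49, adjusted p = 0.151) and without TAF-tib6 replicate 1 (0.21, adjusted p = 0.0634).

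Ptger3, the receptor EP3 that lowers cAMP, lay near the level of the negative controls in all sources. The leading probe had source means between -0.13 ± 0.08 in TAF-el4 and 0.03 ± 0.05 in TAF-tib42. TAF-tib42 was called above NSF by 0.16 (adjusted p = 0.0358) and above TAF-el4 by 0.16 (adjusted p = 0.0344), and both calls were lost with the slide run as a block (0.03 and 0.08, adjusted p = 0.887 and 0.572). The first turned to -0.0055 with Cy5 alone (adjusted p = 0.975). Ptger3 in TAF-tib42 was also not called above NSF without any 1 of the NSF arrays or without replicate 1 or 2 of TAF-tib42 (adjusted p = 0.0507 to 0.15), nor above TAF-el4 without replicate 1 or 2 of TAF-el4 or replicate 1 of TAF-tib42 (adjusted p = 0.0926 to 0.163). The second probe lies 75928 bases from the first, read -0.37 to -0.01 over the 15 arrays, and was above the 99th percentile of negative controls on 10 of them. It had its lowest mean in TAF-tib6 (-0.32) and its highest in TAF-tib48 (-0.05), so the 2 probes do not order the sources alike.

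Over all members, counts of called probes varied between pairs of sources. Against TAF-tib6, 6 of 11 member probes were called in TAF-el4 (20.6% of all probes), 4 in TAF-tib42 (24.8%) and 10 in TAF-tib48 (24.8%). Against NSF, 8 were called in TAF-el4 (17.4%), 8 in TAF-tib42 (24.2%) and 6 in TAF-tib48 (26.5%). The sensitive sources differed in 3 (11%), all lower in TAF-tib6. Between resistant sources, TAF-el4 differed from TAF-tib42 in 9 (23.1%) and from TAF-tib48 in 6 (23.6%), and TAF-tib42 from TAF-tib48 in 4 (14.2%). The median of the 11 differences ranged from -0.16 (TAF-tib42 minus NSF) to 0.22 (TAF-el4 minus TAF-tib42), while that of all probes stayed between -0.01 and 0.01.

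The labels set resistant against sensitive sources, and this comparison took source means as its values, 3 against 2. The limma fit called 0 of 11 member probes, against 0.0026% of all probes (1 probe), while 9.52% of all probes had an unadjusted p under 0.05 and Ptgs1 was the 1 member among them. The resistant mean of Ptgs1 was -0.47 ± 0.23 (SD over 3 sources) and the sensitive mean -1.67 ± 0.63 (SD over 2 sources). The SE of their difference was 0.285 and the limma adjusted p = 0.34. Without TAF-tib6 the difference was 0.761 (adjusted p = 0.804), the smallest with any source left out. Each resistant mean of Ptgs1 lay above both sensitive means, as for 14.3% of all probes. Ptgfr had each resistant mean below both sensitive means, as 12.8% of all probes did, at a difference of -0.13 (adjusted p = 0.583). No other member kept to 1 side.

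For Ptgis and Ptges, TAF-el4 lay apart from TAF-tib42 and TAF-tib48, on the side of the sensitive sources. Ptgis differed by -1.40 (SE 0.614, adjusted p = 0.563) between resistant and sensitive sources, and by -1.99 (adjusted p = 0.125) without TAF-el4. Ptges differed by -0.46 (adjusted p = 0.72), and by -0.79 (adjusted p = 0.112) without TAF-el4. Ptgs2 differed by -0.03 (SE 0.601, adjusted p = 0.992), with resistant sources spread over an SD of 1.06 and sensitive ones over 0.15. Ptger2 differed by -0.22 (adjusted p = 0.574).

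Enzymes and receptors around the members were counted from lists of known pathway genes. As a measure for all of them, 54.7% of all probes were called in at least 1 of the 10 pairs. None of these genes was called between resistant and sensitive sources. Of 15 genes of phospholipases and of other supply of arachidonic acid, 8 were called in at least 1 pair. The monoglyceride lipase Mgll was at 1.56 in NSF and 0.25 in TAF-tib42 (difference -1.31, adjusted p = 1.31e-10). The cytosolic phospholipase Pla2g4a, the main supplier of arachidonic acid to the cyclooxygenases, was highest in TAF-el4 (1.36) and lowest in TAF-tib48 (0.60), and these differed by 0.76 (adjusted p = 3.25e-09). Pla2g16 was higher in TAF-tib48 than in NSF by 0.91, and Pla2g15 higher in TAF-el4 than in TAF-tib42 by 0.83.

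Of 8 other prostanoid synthases 6 were called in at least 1 pair. Prxl2b, which makes prostaglandin F2alpha, was at 2.57 to 2.59 in NSF, TAF-tib6 and TAF-el4, 1.86 in TAF-tib48 and 0.69 in TAF-tib42. TAF-el4 exceeded TAF-tib42 by 1.90 (SE 0.0704, adjusted p = 4.19e-13). Ptges3, the cytosolic prostaglandin E synthase and a co-chaperone, was higher in TAF-el4 than in TAF-tib6 by 0.52 (adjusted p = 4.22e-05). The aldo-keto reductase Akr1b3 was higher in TAF-tib48 than in NSF by 0.49, and the carbonyl reductase Cbr1 higher in TAF-tib42 than in TAF-tib6 by 0.44.

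The next lists cover breakdown, transport and the remaining receptors. Of 6 genes of breakdown and transport 4 were called in at least 1 pair. The organic anion transporter Slco3a1 fell by 1.84 from NSF to TAF-tib48 (adjusted p = 6.4e-14), and it was called in all 10 pairs. Cbr3 was higher in TAF-el4 than in TAF-tib6 by 0.83, while the prostaglandin transporter Slco2a1 and the reductase Ptgr1 had 1 call each. Of 7 other prostanoid receptors 3 were called. The prostacyclin receptor Ptgir fell by 0.56 from NSF to TAF-tib48. In TAF-tib42 Ptgir lay at 0.57, above TAF-tib6 (0.39) and TAF-el4 (0.42), whereas Ptgis was lower in TAF-tib42 than in both. The thromboxane receptor Tbxa2r fell by 0.35 from NSF to TAF-el4, and Pparg was higher in TAF-el4 than in TAF-tib48 by 0.69. Of 13 genes of the leukotriene and lipoxygenase branch 4 were called, none differing by more than the 0.33 by which Alox5ap was lower in TAF-el4 than in TAF-tib48 (difference -0.33).

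Known inducers and regulators of Ptgs2 differed widely between sources. Of 23 such genes, 19 were called in at least 1 pair. Against NSF, 11 fell and 1 rose in TAF-el4, 13 fell and 1 rose in TAF-tib42, 13 fell and 2 rose in TAF-tib48, and 11 fell and 2 rose in TAF-tib6. Of all probes, 17.4%, 24.2%, 26.5% and 11% were called in these comparisons, and 51%, 46.4%, 46.9% and 39.9% of those calls were higher. All 4 comparisons share the NSF arrays. The cytokine Il6 fell by 3.57 from NSF to TAF-tib48 (SE 0.0995, adjusted p = 1.1e-14), with 5.15 in NSF, 3.72 in TAF-tib6, 2.80 in TAF-el4, 4.24 in TAF-tib42 and 1.58 in TAF-tib48. The immediate early factor Egr1 was at -0.11 in TAF-el4 and -3.16 in TAF-tib42 (difference 3.04, adjusted p = 4.94e-13), and Fos fell by 2.45 from NSF to TAF-tib48. Nfkbia, the inhibitor of NF-kappaB, was at -1.52 in TAF-el4 and -1.37 in TAF-tib48 but 0.06 to 0.28 in the other sources. In TAF-el4, where Ptgs2 was highest, Il6 was lower than in NSF, TAF-tib6 and TAF-tib42. Egr1 had its highest mean of the 5 sources there and Nfkbia its lowest. Whether any of these genes bears on Ptgs2 was not tested.

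Of 12 tested genes known to respond to cAMP, the second messenger of EP2 and EP4, 7 were called in at least 1 pair. The nuclear receptor Nr4a1 fell by 2.18 from NSF to TAF-tib48 (adjusted p = 7.25e-10), with 0.66 in TAF-el4. The phosphodiesterase Pde4b fell by 0.91 from NSF to TAF-tib42. Sik1 was higher in TAF-tib42 than in TAF-tib6 by 0.84, and Nr4a2 higher in TAF-el4 than in TAF-tib6 by 0.65.

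Genes whose log2 ratios followed the 4 wide-ranging synthases were taken from 525 gene symbols with source means spanning at least 1. Correlations are over 15 arrays, which form 5 sources of 3 and share the reference RNA, and are descriptions only. Closest to Ptgs1 were the homeobox gene Hoxa7 (r = 0.985), the oxysterol-binding protein Osbpl3 (r = 0.954) and Metrnl (r = 0.911). Among those close to Ptgs2 were the matricellular Ccn2 (r = 0.947) and Steap1 (r = 0.943). Ptges was followed by the matrix protein tenascin C, Tnc (r = 0.976), the hyaluronan synthase Has2 (r = 0.97) and the transcription factor Snai1 (r = 0.964). Ptgis was followed by the vasopressin receptor Avpr1a (r = 0.995), the receptor kinase Mst1r (r = 0.984) and Angptl4 (r = 0.982).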

How the data were processed

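RNA of 5 fibroblast sources was hybridised to 15 arrays, 3 per source, with a reference RNA in Cy3. The scanner files deposited by the authors hold spot intensities (mean signal and median background of each dye) and, per the file headers, the scanner's log10 ratio (Cy5 over Cy3) after background subtraction and LOWESS. Their software is Agilent Feature Extraction 8.5.1.1 per the file headers and the submitters' processing notes, while a protocol label names 9.5. The table deposited by the authors holds log2 ratios that matched the log2 of the scanner's ratio with a slope of 1, in the direction Cy5 over Cy3.

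In R 4.3.3, limma 3.58.1 corrected the background (normexp, offset 50) and normalised each array by loess, which gave control spots a weight of 0. Controls and outlier-flagged spots then left the data, while saturated spots stayed, and repeat spots of a probe were averaged. Testing required that at least 1 source had the scanner's flag for Cy5 well above background on its 3 arrays; 89.59% to 95.76% of probes on an array carried it. The number of arrays limits the precision.

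Pairs of sources (10) and the F test came from 1 limma fit of 15 arrays, and resistant against sensitive sources from limma on the 5 source means. Tests were two-sided, adjusted by Benjamini-Hochberg over all 38522 probes, and called at an adjusted p under 0.05. The brightest probe of a gene leads. Of each pathway list, up to 4 called genes with the largest differences are named, and for members spanning at least 1, the 3 most correlated genes, of which 1 is not reported here. Names came from RefSeq accessions (GRCm38.p6) for 22072 of 41174 probes. Alternatives concerned background, normalisation, scale, filter, slide run, replicate number and left-out arrays or sources. The steps were tested on simulated data. The members and lists were chosen with earlier results of these data known.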

Additional observations from a re-analysis of the deposited data

Results flagged for a closer look

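The members were searched for resistant sources on opposite sides of all sensitive arrays, and Ptgs2 and Ptges were found. How many of all probes show such a split was not counted. For Ptgs2, every TAF-el4 array lay above and every TAF-tib48 array below all sensitive arrays, although both sources carry the resistant label. Of all probes, 23.6% were called between these 2 sources. The difference between them was 2.07 with the leading probe (limma adjusted p = 9.66e-13) and 1.99 with the second probe (adjusted p = 3.26e-12). Relative to the mean of the sensitive sources, TAF-el4 was at 1.12 and TAF-tib48 at -0.95 with the leading probe.

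For Ptges, every TAF-el4 array lay above all sensitive arrays, and every array of TAF-tib42 and of TAF-tib48 lay below them. TAF-el4 exceeded TAF-tib42 by 0.86 (adjusted p = 5.14e-10) and TAF-tib48 by 1.11 (adjusted p = 2.09e-11), pairs in which 23.1% and 23.6% of all probes were called. Relative to the mean of the sensitive sources, TAF-el4 was at 0.20, TAF-tib42 at -0.66 and TAF-tib48 at -0.92.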

How the results depend on the processing

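Of 1170 values recomputed for the 64 called differences and for 5 members between resistant and sensitive sources, 1079 kept their direction and their side of the threshold, 88 lost a call, 2 gained one and 1 turned. The 1 that turned was the leading Ptger3 probe between TAF-tib42 and NSF, at -0.0055 with Cy5 alone. With the slide run as a block, called member probes went from 6 to 3 for TAF-el4 against TAF-tib6, from 8 to 4 for TAF-tib42 against NSF and from 3 to 1 for TAF-tib6 against NSF. They were 4 for TAF-tib42 against NSF with scaled log ratios and 5 for TAF-el4 against NSF with Cy5 alone. Without single arrays they ranged from 6 to 10 for TAF-tib48 against TAF-tib6 (6 without TAF-tib6 replicate 1) and from 5 to 8 for TAF-el4 against NSF (5 without TAF-el4 replicate 2). The causes were not tested. With all 15 arrays and the source as a random block (correlation 0.4014), 2 members were called between resistant and sensitive sources, Ptgs1 at adjusted p = 4.68e-04 and Ptgis at 0.0239, beside 1826 of all probes. That fit takes 1 correlation for all probes. For Ptgs1 and Ptgis, arrays of 1 source lay far closer together (pooled SD 0.07 and 0.09) than the source means, which spanned 1.85 and 2.43. Its p-values for them thus count arrays partly as replicates of the label. By source means 0 members were called, and 11 probes were called over all without TAF-el4. Median centring moved the share of called probes that were higher from 51% to 38.1% for TAF-el4 against NSF, from 46.9% to 33.5% for TAF-tib48 against NSF, and from 57.1% and 57.3% to 67.3% and 67.5% for TAF-el4 against TAF-tib42 and TAF-tib48. Replicate numbers did not pair the arrays: same-numbered arrays of different sources correlated at -0.187 to 0.16 in their deviations from the source means, and 2 of 15 arrays correlated best with their own number. With a replicate block all 64 called differences kept their call. Low signal limits the receptors, whose differences rest on probes near the negative controls.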

Other observations

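A further probe, named by its description as the prostaglandin E receptor EP3 but without the bracketed symbol, was not counted as a member. Its Cy5 signal lay between 79.61 and 110.6 on the 15 arrays, and its source means lay between -0.05 in TAF-tib42 and 0.06 in TAF-tib6.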
